A study of Mus musculus with 12 samples.

Results

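Transcripts of 6 genes that encode suppressive cytokines or the parts that release active TGF-beta were followed in regulatory T cells (Tregs) from pancreatic islets and spleen. The genes were chosen by name: Il10, Ebi3, Tgfb1, Lrrc32, Itgb8 and Itgav. They were found by symbol among the 24417 genes of each deposited table, and all 6 were present in every table. RNA sequencing had been done on Tregs sorted from NOD mice, a strain that develops autoimmune diabetes, at an age of 6.8 weeks. The mice were retrogenic, that is, their blood cells grew from transplanted marrow into which T cell receptor (TCR) genes had been introduced, and per the design text both insulin-specific receptors were expressed in them. The 4 groups were islet Tregs with the TCR 4-8, islet Tregs with 12-4.4m1, spleen Tregs with 4-8 and spleen Tregs with 12-4.4m1, with 3 libraries each and 12 in all. In the order in which the design text lists them, 4-8 is the receptor of high affinity and 12-4.4m1 the one of low affinity. With 1 receptor of each kind, affinity cannot be told apart from other properties of these receptors. The labels do not say if a group's libraries were made from different animals, so p-values refer to libraries and not to animals.

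Tregs restrain other immune cells partly through secreted cytokines. IL-10 acts on myeloid cells and T cells through its receptor and STAT3, and Ebi3 encodes a subunit shared by IL-27, with the p28 subunit encoded by Il27, and IL-35, with the p35 subunit encoded by Il12a. TGF-beta is made in a latent form, in which a propeptide cleaved by furin still cages the cytokine. Tregs hold this latent complex on their surface with GARP, the protein of Lrrc32, and the integrin of the alpha-v chain (Itgav) and the beta-8 chain (Itgb8) pulls on the propeptide to free it.

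Values are given on the scales of the deposited tables. For each of 4 comparisons there was a separately normalized table of regularized log (rlog) values, which are log2 values per library that are shrunk towards the gene's mean where counts are low. Depth per library is not given in the sources used here, and the authors' mean normalized counts summed to 898995 in the table of the TCRs in islets, 1316454 for the TCRs in spleen, 1284347 for the tissues in 4-8 and 918913 for the tissues in 12-4.4m1. Differences were tested with limma among genes with a mean normalized count of at least 10, and passed at a Benjamini-Hochberg adjusted p of 0.05. This test draws each gene's variance towards a trend over all genes tested. Its SE can thus be smaller than the spread of a gene's own libraries would give. Foxp3, the transcription factor that defines Tregs, lay between 149 and 170 FPKM in every group of the authors' deposited tables and passed the test in none of the 4 comparisons. Of the 7 genes of the Treg identity list that Foxp3 belongs to, Ctla4 (2.03 ± 0.15 SE), Cd4 (0.71 ± 0.15) and Cd3e (0.52 ± 0.14) were higher in islet than in spleen Tregs with 4-8, and Ctla4 (2.21 ± 0.16) and Cd4 (0.86 ± 0.14) with 12-4.4m1, at limma adjusted p of 0.0309 or less. The FPKM of the 7 summed to 3879 in islet and 2513 in spleen Tregs with 4-8, and to 3349 in islet and 2366 in spleen Tregs with 12-4.4m1. Of the 5 pancreatic acinar markers, Ctrb1 and Pnlip passed as higher in islet than in spleen Tregs with both TCRs. The summed level of these 5 markers per library, taken off the log scale, was 62.7 to 113 in islet and 39.5 to 45.0 in spleen libraries with 4-8, and 105 to 138 in islet and 43.5 to 47.9 in spleen libraries with 12-4.4m1, with none of the 5 at 0. The rlog shrinkage narrows such sums. Acinar FPKM summed to 162 in islet and 12.9 in spleen Tregs with 4-8, and to 269 in islet and 10.2 in spleen Tregs with 12-4.4m1. Among other marker lists, the NK cell gene Klrd1 was higher and the endothelial gene Pecam1 lower in islet than in spleen Tregs with 4-8. No marker of B cells or myeloid cells passed in any comparison, but 1 B cell marker was tested, and only between the TCRs in spleen. No platelet or fibroblast marker reached the minimum in any comparison. With 4-8 the 5 markers of CD8 T cells and NK cells summed to 15.8 to 27.5 in islet and 12.3 to 14.6 in spleen libraries, and the 4 endothelial markers to 16.3 to 21.7 in islet and 26.1 to 35.5 in spleen libraries, with Cdh5 and Emcn at 0. In FPKM, the CD8 and NK markers summed to 32.0 in islet and 6.38 in spleen Tregs with 4-8, and the endothelial markers to 2.41 and 10.4. The 3 genes of beta cells, Ins1, Ins2 and Iapp, reached the minimum in no table; their FPKM summed to 5.69 in islet and 0 in spleen Tregs with 4-8, and to 37.5 in islet and 0 in spleen Tregs with 12-4.4m1, with Iapp at 0 FPKM throughout. In the tissue tables, Itgam was the 1 gene of the 6 myeloid markers that reached the minimum with 4-8, and no marker of the B cell, platelet or fibroblast lists did. The summed myeloid level was 16.3 to 31.9 in islet and 18.6 to 29.5 in spleen libraries with 4-8, and 14.0 to 14.9 in islet and 14.0 to 15.2 in spleen libraries with 12-4.4m1. Myeloid FPKM summed to 9.89 in islet and 4.60 in spleen Tregs with 4-8, and to 10.9 in islet and 6.34 in spleen Tregs with 12-4.4m1. B cell FPKM summed to 3.04 in islet and 9.36 in spleen Tregs with 4-8, and to 1.18 in islet and 9.40 in spleen Tregs with 12-4.4m1. The part of these other cells in the differences below was not tested, and in such bulk samples fewer expressing cells and less RNA per cell cannot be told apart.

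Per unit of transcript length, the 6 genes fell into different orders across the groups, as the authors' deposited FPKM values show. There is 1 value per group in each of the pair of tables that hold it, with no error. Il10 had the widest span of the 6, with 253 and 262 FPKM in islet 4-8 Tregs, 68.6 and 71.7 in islet 12-4.4m1 Tregs, 7.28 and 7.58 in spleen 4-8 Tregs and 2.47 and 2.58 in spleen 12-4.4m1 Tregs. Ebi3 ran the other way, with 39.4 and 40.6 FPKM in islet 4-8 Tregs, 114 and 119 in islet 12-4.4m1 Tregs, 114 and 118 in spleen 4-8 Tregs and 175 and 182 in spleen 12-4.4m1 Tregs. Thus Il10 was the higher of the pair in islet 4-8 Tregs and Ebi3 the higher in the other 3 groups.

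Tgfb1 split by tissue, with 82.4 to 87.5 FPKM over both islet groups and 31.8 to 34.0 over both spleen groups. Lrrc32 had 27.2 and 28.1 FPKM in islet 4-8 Tregs, 16.2 and 16.9 in islet 12-4.4m1 Tregs, 7.09 and 7.38 in spleen 4-8 Tregs and 2.04 and 2.10 in spleen 12-4.4m1 Tregs. The integrin chains were highest in islets too: Itgb8 had 13.8 to 16.8 FPKM in the islet groups and 4.21 to 7.31 in the spleen groups, and Itgav 21.7 to 24.9 in the islet groups and 10.7 to 13.3 in the spleen groups. In all 4 groups the FPKM of Itgav exceeded that of Itgb8.

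**Figure D1:**
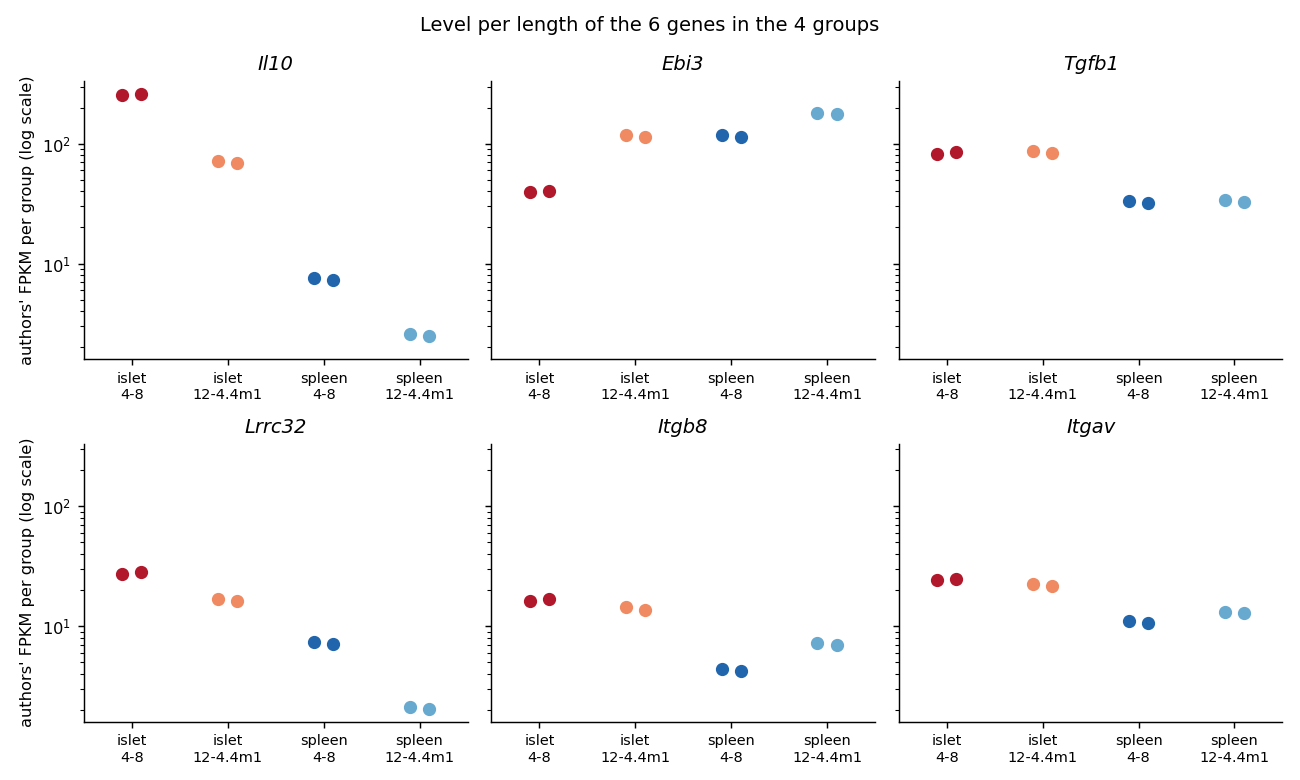
Each panel plots the authors' FPKM of 1 gene on a log axis for the 4 groups, with islets left of spleen and 4-8 left of 12-4.4m1 within a tissue; the pair of points per group are the values in the 2 tables that hold it, with no error. Il10 spans from 2.47 to 262 FPKM, Ebi3 is lowest in islet 4-8 Tregs, and Tgfb1 stands at 2 levels, 1 for each tissue.

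Il10 was higher in islet than in spleen Tregs with both TCRs. The gene lies on the plus strand of chromosome 1 (chr1:131019845-131024974, GRCm38) and is annotated as protein coding, like the other 5 genes. With 4-8 its rlog values were 8.20, 6.93 and 8.46 in islet libraries 1, 2 and 3, against 4.72, 5.19 and 4.57 in spleen libraries 1, 2 and 3. Every islet library lay above every spleen library, and the second islet library lay below the other islet libraries. The difference was 3.04 ± 0.29 SE on the log2 scale, an 8.22-fold difference in rlog values (limma adjusted p = 2.41e-06), and by size it ranked 7 among the 8981 genes tested, counted from the highest in islets. The authors' deposited count test put it at 4.45 ± 0.34 SE, and their FPKM ratio was 35.9. With 12-4.4m1 the rlog values of Il10 were 4.87, 4.97 and 6.23 in islet libraries 1, 2 and 3, against 3.58, 3.99 and 3.79 in spleen libraries 1, 2 and 3. Again no islet library overlapped the spleen libraries, and here the third islet library stood apart from the other pair. The difference was 1.57 ± 0.26 SE (limma adjusted p = 0.000252). The authors' deposited tables did not call it: their count test gave 0.70 ± 0.44 SE with an adjusted p of 0.508, and their FPKM ratio of 29.0 had a q of 0.0681. Whether the tissue difference itself differed between the TCRs was not tested, since the tables were normalized separately.

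Between the TCRs in islets, Il10 was the 1 gene of the 6 that passed. Its rlog values were 7.94, 6.79 and 8.20 in the 4-8 libraries (replicates 1 and 2, and a library whose column number matches no title), against 5.88, 5.90 and 7.16 in the 12-4.4m1 libraries 1, 2 and 3. The groups overlapped, because the second 4-8 library lay below the third 12-4.4m1 library. Mean rlog values were 7.64 ± 0.75 with 4-8 and 6.31 ± 0.73 with 12-4.4m1 (SD over 3 libraries), a difference of 1.33 ± 0.29 SE (limma adjusted p = 0.0301). This SE is drawn towards the trend over genes, and under a robust variance model it was 0.49. The authors' deposited tables also called it, with an adjusted p of 0.00226 in their count test and a q of 0.00991 for an FPKM ratio of 3.69. In the limma test the call was lost on leaving out 4-8 replicate 1 (adjusted p = 0.211), the 4-8 library of unmatched number (adjusted p = 0.196), 12-4.4m1 replicate 1 (adjusted p = 0.358) or 12-4.4m1 replicate 2 (adjusted p = 0.475), with differences of 1.05 to 1.18, under a robust variance model (adjusted p = 0.660) and at a minimum mean count of 50 (adjusted p = 0.0674).

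The level of Il10 in islet libraries followed the style of the library title. The titles of 4-8 replicate 2 and of 12-4.4m1 replicates 1 and 2 contain the word Treg, while the other 3 islet libraries and all spleen libraries are titled with the letter R, and the labels do not say what the styles stand for. Il10 lay between 5.88 and 6.79 in the 3 Treg-titled islet libraries and between 7.16 and 8.20 in the 3 R-titled ones, with no overlap, as for 17.6% of the genes tested in that table. The 4-8 group held 1 Treg-titled library and the 12-4.4m1 group held 2, so the styles were unequally shared. Within each style the 4-8 libraries lay above the 12-4.4m1 libraries, by 0.91 among R-titled libraries (2 against 1) and by 0.90 among Treg-titled libraries (1 against 2). With the style as a term in the fit the difference was 0.90 ± 0.18 SE (limma adjusted p = 0.00428), and with R-titled libraries only it was 0.91 (limma adjusted p = 0.110). Style bears on the tissue comparison too, since all spleen libraries are R-titled. With 4-8 and without the Treg-titled replicate 2, the tissue difference of Il10 was 3.51 ± 0.20 SE (2 islet against 3 spleen libraries, limma adjusted p = 2.04e-09). With 12-4.4m1 only 1 islet library, replicate 3, is R-titled, and it is the one that stood apart. It lay 2.44 above the mean of the 3 spleen libraries, a value whose error rests on the spleen libraries, since a lone library has no spread of its own.

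In spleen Il10 was too low to test between the TCRs, with a mean normalized count of 8.47. Its rlog values were 3.09, 3.39 and 3.14 in the 4-8 libraries, against 3.0, 3.23 and 3.03 in the 12-4.4m1 libraries. The groups overlapped and their means differed by 0.12. The authors' deposited FPKM was 7.58 in 4-8 and 2.58 in 12-4.4m1, which their table marks as not tested.

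**Figure D2:**
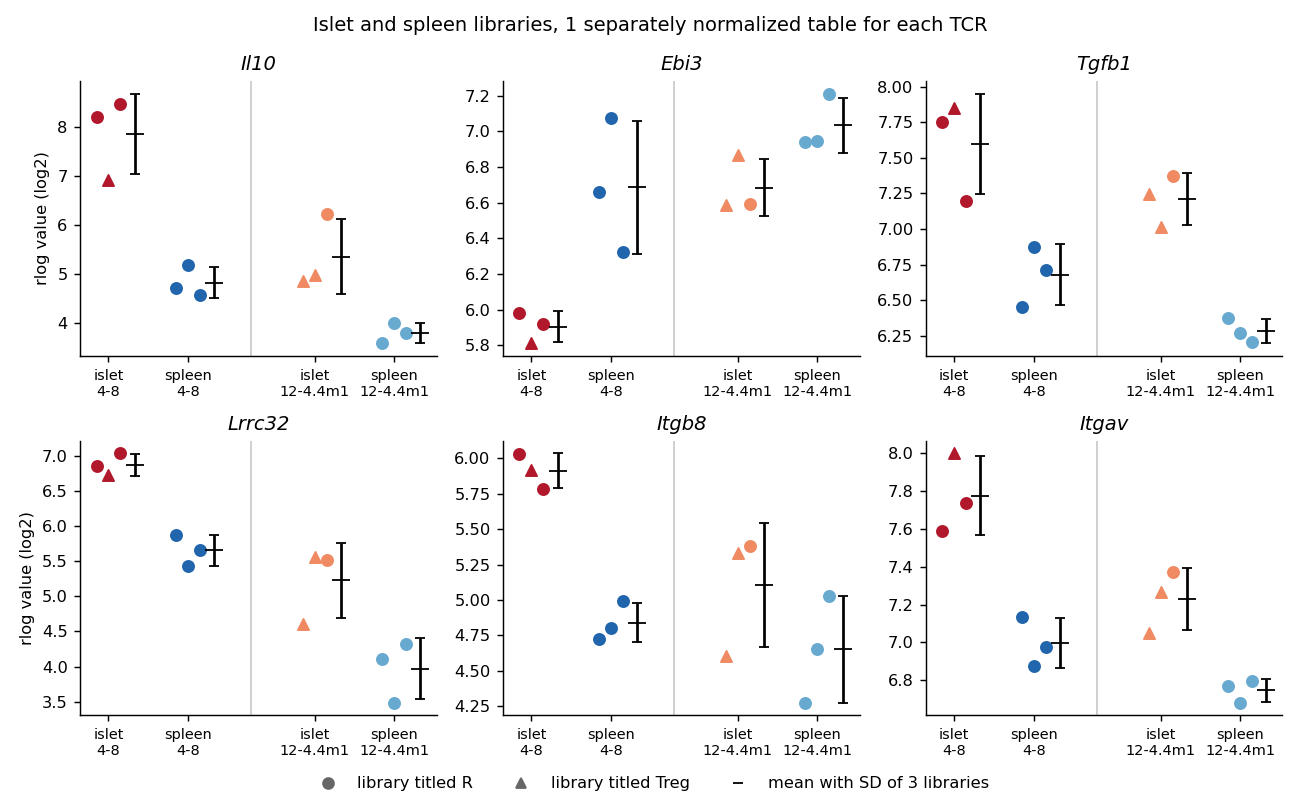
Each panel plots the rlog value (log2) of 1 gene in every library of the tissue comparisons, islets left of spleen, for 4-8 and, right of the grey line, for 12-4.4m1 from its own table; triangles are Treg-titled libraries, circles R-titled ones, and bars are the mean with SD of 3 libraries. With 4-8 the tissues are apart for all 6 genes, with Ebi3 the 1 gene lower in islets, and with 12-4.4m1 Itgb8 overlaps.

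Ebi3 was lower in islet than in spleen Tregs with 4-8, the opposite of the other 5 genes. It lies on the plus strand of chromosome 17 (chr17:55952640-55957022, GRCm38). Its rlog values with 4-8 were 5.98, 5.81 and 5.92 in islet libraries 1, 2 and 3, against 6.66, 7.07 and 6.32 in spleen libraries 1, 2 and 3. All islet libraries lay below all spleen libraries, and the islet libraries were close together. The difference was -0.78 ± 0.19 SE (limma adjusted p = 0.0175), and it was also called by both of the authors' deposited tests. It did not pass without spleen replicate 1 (-0.79, adjusted p = 0.0786) or without spleen replicate 2 (-0.59, adjusted p = 0.141). With 12-4.4m1 the values were 6.59, 6.87 and 6.59 in islets, against 6.94, 6.95 and 7.21 in spleen. These groups did not overlap either, but the difference of -0.35 ± 0.17 SE did not pass (limma adjusted p = 0.237).

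In both tissues the mean of Ebi3 was lower in 4-8 than in 12-4.4m1, without passing the test. In islets the rlog values were 5.49, 5.36 and 5.44 in the 4-8 libraries (replicates 1 and 2, and the library of unmatched number), against 6.09, 6.36 and 6.10 in the 12-4.4m1 libraries 1, 2 and 3. The groups did not overlap, and the 4-8 libraries were lower within either title style, by -0.64 among R-titled and -0.87 among Treg-titled libraries. The difference was -0.76 ± 0.19 SE (limma adjusted p = 0.0862), while the authors' deposited FPKM test called it with a q of 0.0243. In spleen the values were 7.14, 7.52 and 6.80 in 4-8, against 7.48, 7.51 and 7.73 in 12-4.4m1, with overlap and a difference of -0.42 ± 0.15 SE (limma adjusted p = 0.357). The partner subunits of Ebi3 were not detected: Il12a and Il27 had a mean normalized count of 0 in all 4 tables, as had Il12b and Il23a. The promoter of Ebi3 is shown because it is the 1 gene of the 6 that fell in islets; it spans chr17:55952373-55952672 on the plus strand (RefSeq, GRCm38.p6), from 250 bases before to 50 after the start. Capitals mark matches, on either strand, to the NFAT core GGAAA and the SMAD-binding element CAGAC.
Ebi3: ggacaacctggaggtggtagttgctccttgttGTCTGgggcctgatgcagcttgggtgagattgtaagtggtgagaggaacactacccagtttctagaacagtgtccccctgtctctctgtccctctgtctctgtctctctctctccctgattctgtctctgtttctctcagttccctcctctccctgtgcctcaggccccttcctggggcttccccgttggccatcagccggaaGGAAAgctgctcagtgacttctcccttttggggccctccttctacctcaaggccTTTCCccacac
With positions counted from the start, negative before it, the 2 NFAT matches began at -15 and 40 and the 1 SMAD match at -218. Of 32851 promoters of this length, 61.3% hold GGAAA and 49.6% hold CAGAC.

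Tgfb1, which encodes the cytokine TGF-beta 1, was higher in islet than in spleen Tregs with both TCRs. It lies on the plus strand of chromosome 7 (chr7:25687002-25705077, GRCm38). With 4-8 its rlog values were 7.75, 7.85 and 7.19 in islet libraries 1, 2 and 3, against 6.45, 6.88 and 6.71 in spleen libraries 1, 2 and 3. With 12-4.4m1 they were 7.25, 7.01 and 7.37 in islets, against 6.37, 6.27 and 6.2 in spleen. No islet library overlapped a spleen library in either table. The differences were 0.92 ± 0.19 SE with 4-8 (limma adjusted p = 0.00545), which missed the threshold without spleen replicate 1 (0.80, adjusted p = 0.0548), and 0.93 ± 0.17 SE with 12-4.4m1 (limma adjusted p = 0.000677).

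The TCRs showed no passed difference in Tgfb1 in either tissue. In islets its rlog values were 7.41, 7.54 and 6.88 in the 4-8 libraries (replicates 1 and 2, and the library of unmatched number), against 7.37, 7.13 and 7.48 in the 12-4.4m1 libraries. The difference was -0.05 ± 0.20 SE (95% interval -0.47 to 0.36; limma adjusted p = 0.985), with -0.34 among R-titled and 0.29 among Treg-titled libraries. In spleen the values were 6.33, 6.71 and 6.56 in 4-8, against 6.63, 6.57 and 6.47 in 12-4.4m1, a difference of -0.02 ± 0.13 SE (95% interval -0.29 to 0.24; limma adjusted p = 0.985). The groups overlapped in both tissues. The promoter of Tgfb1 is shown because the gene rose in islets with both TCRs; it spans chr7:25686752-25687051 on the plus strand (RefSeq, GRCm38.p6). Capitals mark matches to the Sp1 GC box GGGCGG on either strand.
Tgfb1: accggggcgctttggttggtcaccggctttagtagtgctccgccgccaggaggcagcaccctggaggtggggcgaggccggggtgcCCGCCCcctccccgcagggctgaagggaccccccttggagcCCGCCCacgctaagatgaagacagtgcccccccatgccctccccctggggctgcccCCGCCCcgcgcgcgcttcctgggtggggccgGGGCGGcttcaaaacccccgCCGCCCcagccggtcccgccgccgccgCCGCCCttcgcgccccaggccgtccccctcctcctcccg
This window held 6 GC boxes, beginning at -164, -123, -67, -36, -16 and 12, and 35.7% of all promoters held at least 1. It held no GGAAA and no CAGAC.

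Lrrc32, whose product GARP anchors latent TGF-beta on the Treg surface, rose in islets with both TCRs. It lies on the plus strand of chromosome 7 (chr7:98489283-98502181, GRCm38). With 4-8 its rlog values were 6.86, 6.72 and 7.04 in islet libraries 1, 2 and 3, against 5.87, 5.44 and 5.66 in spleen libraries 1, 2 and 3. With 12-4.4m1 they were 4.61, 5.56 and 5.52 in islets, against 4.10, 3.48 and 4.32 in spleen. The tissues did not overlap, although the first islet library of 12-4.4m1 lay close to the spleen libraries. The differences were 1.22 ± 0.18 SE with 4-8 (limma adjusted p = 0.000226) and 1.26 ± 0.24 SE with 12-4.4m1 (limma adjusted p = 0.00148). All runs that left out 1 library kept these calls.

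Between the TCRs, every 4-8 library had a higher Lrrc32 value than every 12-4.4m1 library in both tissues. Neither difference passed in the main fit, which took the libraries as unpaired. In islets the rlog values were 6.47, 6.38 and 6.65 in 4-8 (replicates 1 and 2, and the library of unmatched number), against 5.45, 6.27 and 6.23 in 12-4.4m1. The difference was 0.51 ± 0.21 SE (limma adjusted p = 0.588), with 0.33 among R-titled and 0.51 among Treg-titled libraries, and the gap between the groups was narrow. Without 12-4.4m1 replicate 1, the lowest library, it was 0.25 (limma adjusted p = 0.926). In spleen the values were 4.87, 4.62 and 4.77 in 4-8, against 4.37, 4.04 and 4.49 in 12-4.4m1. The difference was 0.46 ± 0.12 SE (limma adjusted p = 0.114), and it passed without 12-4.4m1 replicate 3 (0.55, adjusted p = 0.0302). Without 12-4.4m1 replicate 2, the lowest library, it was 0.32 (limma adjusted p = 0.486). The description of replicate 2 of each TCR lists the other TCR's tissue table. With both replicates 2 exchanged between the TCRs, the difference was 0.062 and did not pass. The authors' deposited FPKM ratio in spleen was 3.51 with a q of 0.119.

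Itgb8 and Itgav encode the chains of the integrin that activates latent TGF-beta, and both rose in islets with 4-8. Itgb8 lies on the minus strand of chromosome 12 (chr12:119158022-119238802, GRCm38). With 4-8 its rlog values were 6.03, 5.92 and 5.79 in islet libraries 1, 2 and 3, against 4.73, 4.80 and 4.99 in spleen libraries 1, 2 and 3. The tissues were well apart, and the difference was 1.07 ± 0.18 SE (limma adjusted p = 0.000820). With 12-4.4m1 the values were 4.60, 5.33 and 5.38 in islets, against 4.27, 4.65 and 5.03 in spleen. Here the first islet library lay below the spleen libraries 2 and 3, and the difference of 0.45 ± 0.23 SE did not pass (limma adjusted p = 0.268).

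Itgav lies on the plus strand of chromosome 2 (chr2:83724397-83806916, GRCm38); the alpha-v chain also pairs with other beta chains. With 4-8 its rlog values were 7.59, 8.00 and 7.74 in islet libraries 1, 2 and 3, against 7.13, 6.87 and 6.98 in spleen libraries 1, 2 and 3. With 12-4.4m1 they were 7.05, 7.27 and 7.37 in islets, against 6.77, 6.68 and 6.79 in spleen. The tissues did not overlap in either table. The difference was 0.78 ± 0.16 SE with 4-8 (limma adjusted p = 0.00596). With 12-4.4m1 it was 0.48 ± 0.16 SE and did not pass (limma adjusted p = 0.0737), but it passed at a minimum mean count of 50 (adjusted p = 0.0452), and the authors' deposited FPKM test called it with a q of 0.0130. It did not pass on leaving out any 1 library (limma adjusted p of 0.0531 to 0.274) or in the authors' deposited count test (adjusted p = 0.182).

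Neither chain passed the test between the TCRs in either tissue. Itgb8 in islets was 5.77, 5.71 and 5.57 in 4-8 (replicates 1 and 2, and the library of unmatched number), against 4.99, 5.63 and 5.67 in 12-4.4m1, a difference of 0.25 ± 0.20 SE (95% interval -0.17 to 0.66; limma adjusted p = 0.875). Itgav in islets was 7.18, 7.61 and 7.33 in 4-8, against 7.10, 7.31 and 7.41 in 12-4.4m1, a difference of 0.10 ± 0.19 SE (95% interval -0.30 to 0.49; limma adjusted p = 0.968). Both overlapped, and within R-titled libraries the differences were -0.01 for Itgb8 and -0.16 for Itgav, against 0.39 and 0.40 within Treg-titled ones. In spleen Itgb8 was 4.44, 4.50 and 4.62 in 4-8, against 4.41, 4.7 and 4.91 in 12-4.4m1, a difference of -0.15 ± 0.12 SE (95% interval -0.40 to 0.10; limma adjusted p = 0.823). Itgav in spleen was 7.07, 6.83 and 6.93 in 4-8, against 7.14, 7.08 and 7.15 in 12-4.4m1, a difference of -0.18 ± 0.12 SE (95% interval -0.43 to 0.07; limma adjusted p = 0.771). The spleen groups overlapped for Itgb8, while for Itgav every 4-8 library lay below every 12-4.4m1 library.

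The promoters of both integrin chains are shown since the genes encode the chains of 1 integrin and rose together with 4-8. That of Itgb8 spans chr12:119238227-119238526 on the minus strand and that of Itgav chr2:83724147-83724446 on the plus strand (RefSeq, GRCm38.p6). The Itgb8 window follows the RefSeq start and lies wholly within the gene span given above. Its positions are thus not counted from the end of that span. Capitals mark a CAGAC in Itgb8 and a GGGCGG in Itgav.
Itgb8: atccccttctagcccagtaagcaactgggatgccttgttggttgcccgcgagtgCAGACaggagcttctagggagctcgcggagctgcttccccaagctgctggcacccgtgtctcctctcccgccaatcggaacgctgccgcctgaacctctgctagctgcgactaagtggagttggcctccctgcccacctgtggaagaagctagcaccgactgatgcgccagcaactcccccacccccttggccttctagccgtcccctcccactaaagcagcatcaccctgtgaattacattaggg
Itgav: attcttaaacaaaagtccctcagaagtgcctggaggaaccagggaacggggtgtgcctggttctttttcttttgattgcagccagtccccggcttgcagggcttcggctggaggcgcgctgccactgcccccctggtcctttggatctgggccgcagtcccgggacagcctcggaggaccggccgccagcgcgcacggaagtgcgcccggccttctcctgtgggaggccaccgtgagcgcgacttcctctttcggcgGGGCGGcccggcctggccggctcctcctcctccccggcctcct
The CAGAC of Itgb8 began at -196 and the GC box of Itgav at 8. Neither window held GGAAA. The AP-1 site TGANTCA, which 7.81% of all promoters hold, was in none of the 4 windows shown. None of the 4 motifs was thus found in all 4 windows. Promoters of Il10 and Lrrc32 were not analysed here.

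**Figure D3:**
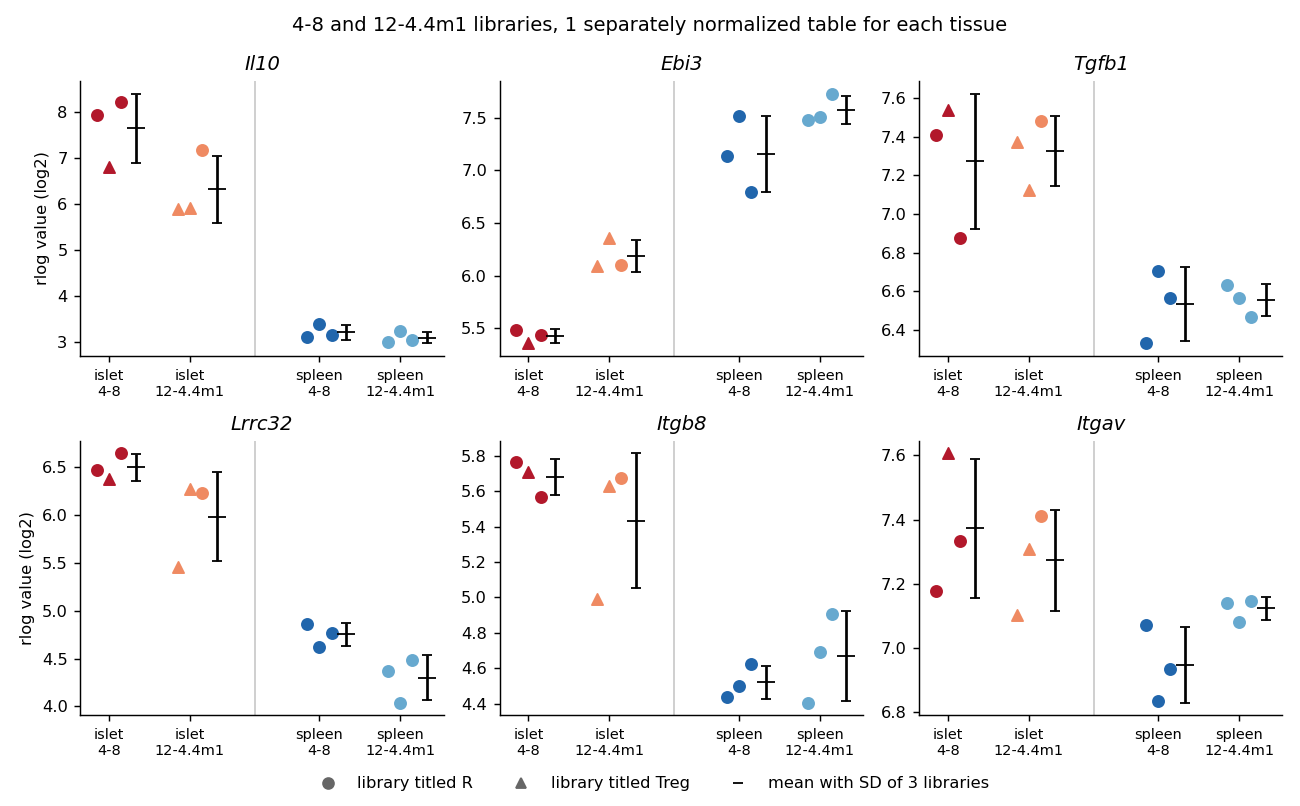
Each panel plots the rlog value (log2) of 1 gene in every library of the TCR comparisons, 4-8 left of 12-4.4m1, for islets and, right of the grey line, for spleen from its own table; triangles are Treg-titled libraries, circles R-titled ones, and bars are the mean with SD of 3 libraries. Il10 in islets is apart by symbol while its TCRs overlap, and Ebi3 and Lrrc32 in islets are apart by TCR.

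The calls of the 6 genes were set beside those of all genes tested. With 4-8, 5 of the 6 passed as higher in islets, where 5.14% of all 8981 genes tested did, and 1 as lower, where 2.84% did, so that all 6 passed against 7.98% of genes. All 6 were without overlap between the tissues, as were 27.4% of genes, and their median difference was 1.0, against -0.01 over all genes. The authors' deposited tests called all 6 as well, where their DESeq2 test called 6.76% of genes and their Cuffdiff test on FPKM 15.6%.

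With 12-4.4m1, 3 of the 6 passed as higher, against 4.63% of 8438 genes, and none as lower, against 2.18%, which makes 3 of 6 against 6.81% in either direction. There 5 of the 6 were without overlap, against 24.1% of genes, and the median difference was 0.71, against 0.00 over all genes. The authors' deposited DESeq2 test called 2 of the 6, Tgfb1 and Lrrc32, against 4.72% of genes, and their Cuffdiff test 3, Tgfb1, Lrrc32 and Itgav, against 14.4%. Il10 with 12-4.4m1 was thus called by limma and by neither of the authors' tests.

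Between the TCRs in islets, 1 of 6 passed as higher, against 0.256% of 8212 genes, and none as lower, against 0.11% (0.365% in either direction). Without overlap were 2 of the 6, against 11.9% of genes, and their median difference was 0.17, against 0.00 over all genes. The authors' deposited DESeq2 test called 1 of the 6, Il10, against 0.353% of genes, and their Cuffdiff test 2, Il10 and Ebi3, against 0.928%. Between the TCRs in spleen, limma called none of the 5 genes tested, where 0.209% of 9108 genes passed as higher, 0.22% as lower and 0.428% in either direction. Of these 5, Ebi3 and Lrrc32 had an unadjusted p under 0.05, as had 722 of all 9108 genes, and 2 were without overlap, against 13.3% of genes. The authors' deposited tests called none, against 0.231% of genes in DESeq2 and 1.13% in Cuffdiff. The comparisons share libraries in pairs, so their values are not independent of each other.

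**Figure D4:**
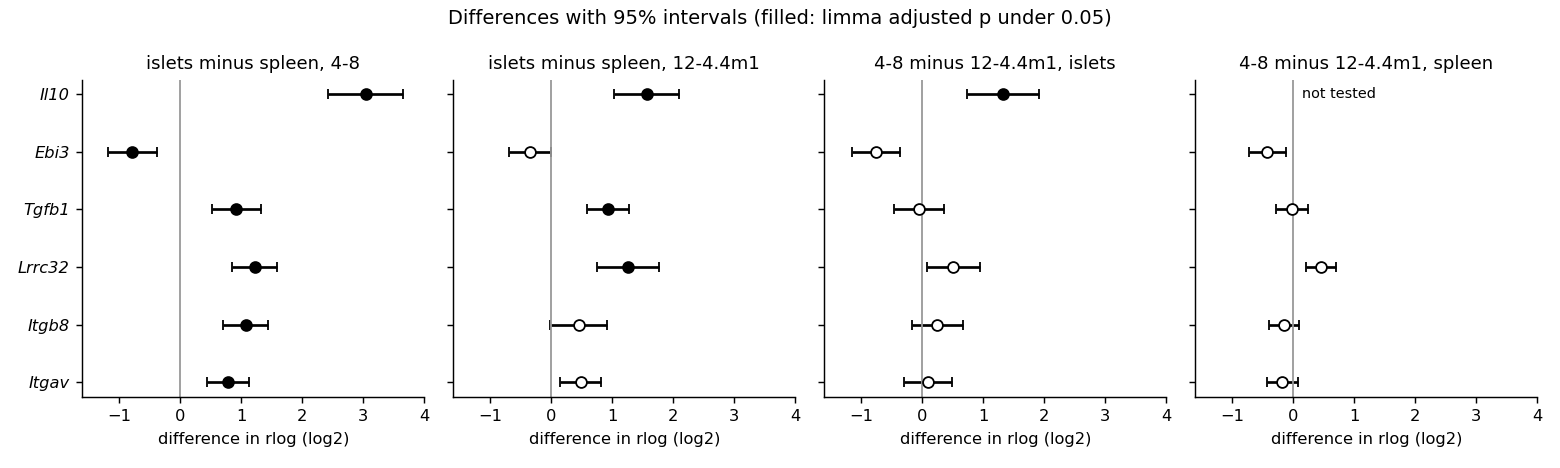
Points are differences in rlog (log2) of the 6 genes in each comparison, with islets minus spleen in the left pair of panels and 4-8 minus 12-4.4m1 in the right pair; bars are 95% intervals from limma and filled points passed at an adjusted p of 0.05. Il10 with 4-8 stands farthest from 0, at 3.04, and only Ebi3 has a negative passed difference, at -0.78.

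**Figure D5:**
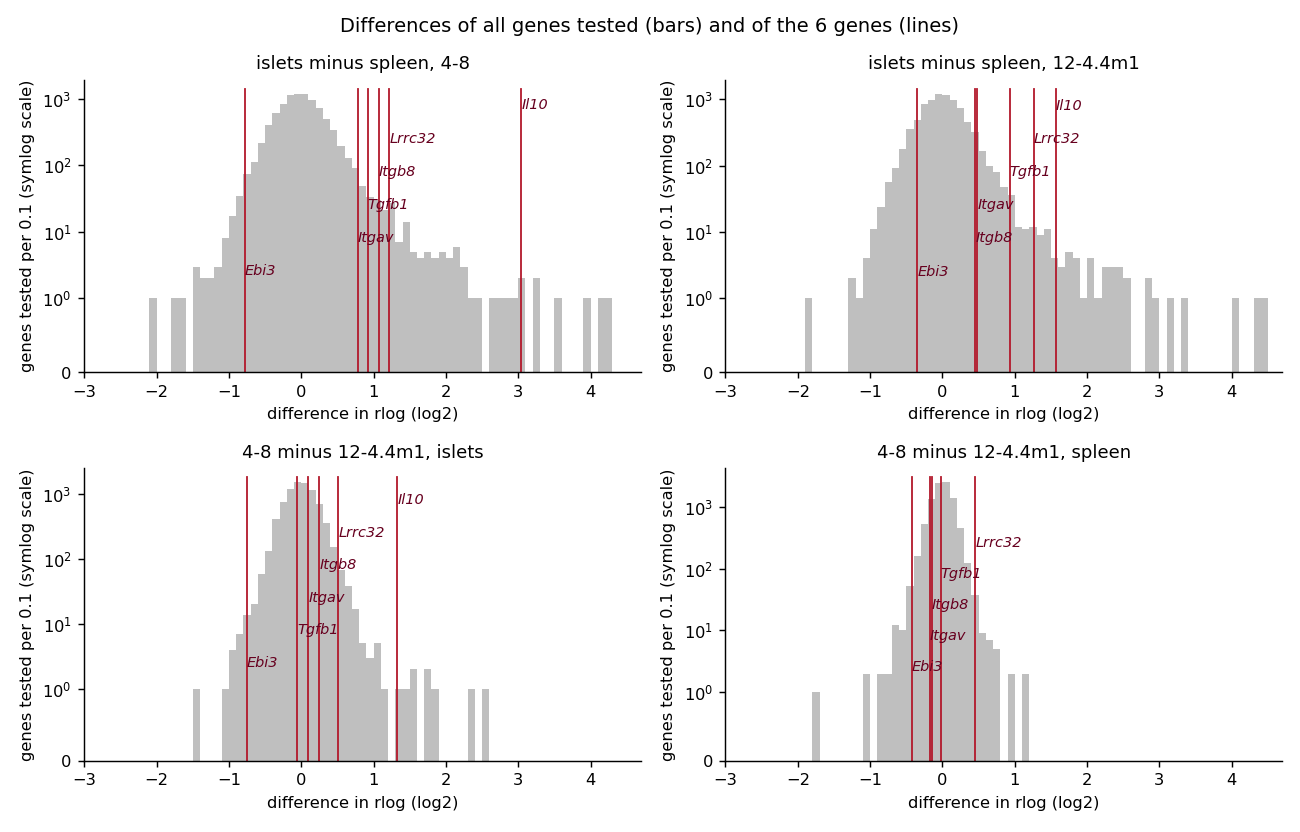
Grey bars count all genes tested per 0.1 of difference in rlog (log2) on a symlog axis, and red lines mark the 6 genes, with islets minus spleen above and 4-8 minus 12-4.4m1 below. Il10 lies in the right tail in 3 panels, at 3.04, 1.57 and 1.33, and was not tested in spleen.

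Other genes of these pathways were described from lists made by name, of which the 6 genes make up a part. These lists were chosen with earlier results of these data known, so their counts and medians are a description and not an independent test. Of all genes tested, 5.14% passed as higher in islets with 4-8 and 4.63% with 12-4.4m1, and 2.84% and 2.18% as lower. Of 17 genes of TGF-beta ligands and latency, 8 reached the minimum. With 4-8, 5 of the 8 were higher in islets and none lower: 4 of the 6 genes above and Furin, the protease that cleaves the propeptide (1.25 ± 0.16 SE, limma adjusted p = 6.30e-05). With 12-4.4m1, 3 of the 8 were higher, Furin (1.47 ± 0.19 SE, limma adjusted p = 9.92e-06), Tgfb1 and Lrrc32. The median difference of the list was 0.85 with 4-8 and 0.47 with 12-4.4m1, against -0.01 and 0.00 over all genes tested. Furin stood at 25.2 FPKM in islet and 5.83 in spleen Tregs with 4-8, and at 25.9 in islet and 5.41 in spleen Tregs with 12-4.4m1. The epithelial integrin chain Itgb6 and the activator Thbs1 were at 0 in all 4 tables.

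Of the receptors and SMAD proteins that carry the TGF-beta signal, 3 of 11 tested were higher in islets with each TCR and none was lower. These were Tgif1 (2.14 ± 0.22 SE with 4-8 and 1.85 ± 0.19 with 12-4.4m1), Skil (1.21 ± 0.17 and 1.28 ± 0.17) and Smad7 (0.94 ± 0.16 and 0.95 ± 0.18), with limma adjusted p of 0.00124 or less. All encode inhibitors of SMAD signalling. The receptors Tgfbr1 and Tgfbr2 did not pass, and the list's median difference was 0.16 with 4-8 and 0.28 with 12-4.4m1. Of 10 genes listed here as targets of TGF-beta in T cells, 7 were higher in islets with 4-8 and 9 with 12-4.4m1. None was lower, and the medians were 1.27 and 1.11. Whether TGF-beta raised them was not tested. Rgs16, a regulator of G protein signalling, was 3.56 ± 0.22 SE higher with 4-8 (limma adjusted p = 9.27e-09) and 2.82 ± 0.17 SE higher with 12-4.4m1 (limma adjusted p = 8.60e-12). The chemokine receptor Ccr8 was 2.30 ± 0.19 SE higher with 4-8 and 1.88 ± 0.24 SE higher with 12-4.4m1. Smad7, Skil and Tgif1 stand in both lists. Rgs16, Bhlhe40 and Cdkn1a are known to be induced in T cells by other stimuli too, and Itgae, which encodes the alpha chain of CD103, did not pass with either TCR (0.22 ± 0.19 SE with 4-8 and 0.21 ± 0.19 SE with 12-4.4m1).

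Transcription factors known to act on Il10 were higher in islets in 8 of 11 cases with 4-8 and in 7 of 11 with 12-4.4m1, with none lower and medians of 0.88 and 0.87. Among all genes tested, 5.14% passed as higher with 4-8 and 4.63% with 12-4.4m1. Bhlhe40, a repressor of Il10 in T helper cells, was 1.66 ± 0.16 SE higher with 4-8 (limma adjusted p = 2.91e-06) and 1.83 ± 0.17 SE higher with 12-4.4m1 (limma adjusted p = 3.61e-08). Nfil3 was 1.96 ± 0.22 SE higher with 4-8 and 1.47 ± 0.22 SE higher with 12-4.4m1. With 4-8, Ahr (1.51 ± 0.17 SE) and Irf4 (1.25 ± 0.16 SE) had the next smallest p, and with 12-4.4m1 Stat3 (0.94 ± 0.14 SE) and Tbx21 (1.22 ± 0.19 SE). On the receiving side, 2 of 7 genes of IL-10 receptor signalling were higher with each TCR and none lower, with medians of 0.00 with 4-8 and 0.09 with 12-4.4m1. They were Stat3 and Bcl3 (0.67 ± 0.16 SE with 4-8 and 1.03 ± 0.19 SE with 12-4.4m1), while the receptor genes Il10ra and Il10rb did not pass. Stat3 is also counted among the factors acting on Il10, and Bhlhe40 also among the TGF-beta targets. The call of Bcl3 with 4-8 was lost on leaving out any 1 spleen library, with an adjusted p of 0.0547 to 0.106.

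In the family of IL-12 and IL-35, 6 of 12 genes were tested with 4-8, of which 2 were higher in islets and 1, Ebi3, lower, and 5 were tested with 12-4.4m1, of which 1 was higher. The medians were 0.04 with 4-8 and 0.13 with 12-4.4m1. The shared receptor chain Il6st (gp130) was higher in islets with 4-8 (0.99 ± 0.17 SE, limma adjusted p = 0.00143) and with 12-4.4m1 (0.98 ± 0.20 SE, limma adjusted p = 0.00225). Il12rb2, a receptor chain of IL-12 that is also used by IL-35, was higher in islets with 4-8 (1.01 ± 0.21 SE, limma adjusted p = 0.00520) and too low to test with 12-4.4m1, where its FPKM was 4.78 in islet and 1.18 in spleen Tregs. Il12rb2 was also the 1 gene of these lists, beside Il10 itself, that passed between the TCRs in islets. It was higher in 4-8, with 5.72 ± 0.32 against 4.71 ± 0.10 in 12-4.4m1 (SD, n = 3 each), a difference of 1.01 ± 0.20 SE (limma adjusted p = 0.00958). That call was lost without 4-8 replicate 2 (0.84, adjusted p = 0.0734), 12-4.4m1 replicate 1 (1.01, adjusted p = 0.102) or 12-4.4m1 replicate 2 (1.06, adjusted p = 0.0598), and with R-titled libraries only (0.94, adjusted p = 0.145).

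No other list gave a call between the TCRs in islets. Of the genes with the smallest p in each, Smad3 differed by -0.61 ± 0.21 SE (limma adjusted p = 0.359), Ldlrad4 by -0.59 ± 0.19 SE (limma adjusted p = 0.289), Il10ra by 0.50 ± 0.19 SE (limma adjusted p = 0.499) and Prdm1 by 0.38 ± 0.20 SE (limma adjusted p = 0.75). At an unadjusted p under 0.05 there were 1 of 8 genes of ligands and latency, 1 of 11 of receptors and SMADs, 4 of 10 targets, 1 of 7 of the IL-10 receptor and 0 of 11 regulators, beside 557 of all 8212 genes tested. The authors' deposited count test called none of these lists' genes, and their FPKM test 1 of the targets. In spleen 1 gene passed, the IL-10 receptor gene Il10ra, which was higher in 4-8 (8.34 ± 0.09 in 4-8 and 7.81 ± 0.09 in 12-4.4m1, SD, n = 3 each; difference 0.53 ± 0.12 SE, limma adjusted p = 0.0431). It did not pass on leaving out any 1 of the 6 libraries, with differences of 0.48 to 0.58 and an adjusted p of 0.0648 to 0.300. The beta-1 integrin chain Itgb1 differed by -0.75 ± 0.18 SE in spleen (limma adjusted p = 0.0746). It passed without 4-8 replicate 1 (-1.02, adjusted p = 0.00331), without 12-4.4m1 replicate 1 (-0.74, adjusted p = 0.0471) or replicate 3 (-0.94, adjusted p = 0.00839), with no filter (adjusted p = 0.0254) and in the authors' deposited FPKM test (q = 0.00793). Pmepa1 differed by -0.46 ± 0.12 SE (limma adjusted p = 0.118) and Il12rb2 by 0.42 ± 0.11 SE (limma adjusted p = 0.0959). Smad2, at -0.29 ± 0.13 SE (limma adjusted p = 0.576), and Ikzf3, at 0.42 ± 0.12 SE (limma adjusted p = 0.189), had the smallest p in their lists. Unadjusted, 3 of 8, 1 of 11, 3 of 9, 2 of 7, 5 of 11 and 4 of 6 genes of the 6 lists, in the order ligands, receptors, targets, IL-10 receptor, regulators and IL-12 family, had a p under 0.05, beside 722 of all 9108 genes tested. The authors' deposited count test called none of them, and their FPKM test 1, 0, 2, 1, 3 and 0.

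Beside the Il10 difference between the TCRs in islets, levels of other cell types were as follows. The 3 beta cell genes had summed FPKM of 5.49 in 4-8 and 35.9 in 12-4.4m1. The 5 acinar markers summed to 105 to 153 in 4-8 and 150 to 190 in 12-4.4m1 libraries, with none at 0 and none passed. Their FPKM summed to 156 in 4-8 and 257 in 12-4.4m1. The 5 markers of CD8 T cells and NK cells summed to 14.5 to 20.8 in 4-8 and 14.2 to 15.3 in 12-4.4m1, with Cd8a and Ncr1 at 0. In FPKM these 5 summed to 31.2 in 4-8 and 14.1 in 12-4.4m1. The 1 gene of them that was tested was 0.51 higher in 4-8 and did not pass. The 6 myeloid markers summed to 13.2 to 17.8 in 4-8 and 13.9 to 14.8 in 12-4.4m1, with Itgax at 0, and the B cell markers Ms4a1 and Pax5 were at 0. Myeloid FPKM summed to 9.61 in 4-8 and 10.4 in 12-4.4m1.

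Across the 6 libraries of each table, the genes most like each of the 6 were found by the lowest Pearson r over the tables, as a description in which the libraries of the tables are partly the same. For Il10, Gapdh, an enzyme of glycolysis, was most alike, with r of 0.97 to 0.98 in the 3 tables where Il10 was tested, followed by the histone gene H3f3b (0.96 to 0.98) and Ncaph2 (0.95), among 7979 genes. Gapdh too sorted by title style in islets, with 9.21 to 9.53 in Treg-titled and 9.86 to 10.21 in R-titled libraries. For Ebi3 it was Wls, which encodes a carrier of Wnt proteins, with r of 0.80 to 0.88 in 4 tables, ahead of Ergic2 and Bicd1, among 7927 genes. Wls was itself lower in islet than in spleen Tregs with 4-8 (-0.78 ± 0.18 SE, limma adjusted p = 0.0109) and with 12-4.4m1 (-0.74 ± 0.18 SE, limma adjusted p = 0.0129). It was also lower in 4-8 than in 12-4.4m1 spleen Tregs (-0.67 ± 0.14 SE, limma adjusted p = 0.0229), while in islets that difference did not pass (-0.59 ± 0.19 SE, limma adjusted p = 0.305). Tgfb1 was most like Pan3 (0.75 to 0.99), then Cd101. Lrrc32 was most like Ptms (0.84 to 0.97), then Sdf4 and Fdxr. The integrin chain Itgb8 was most like Dpagt1, with Ptpn5 also among its most alike, and Itgav like Smco4 and then Hnrnpl and Ddit4. None of the 6 genes was among the 3 most alike of another of the 6. With 3 places among so many genes, this says little of how the 6 varied together. Il10 had r of 0.75 to 0.94 with Lrrc32, 0.53 to 0.91 with Itgb8, 0.11 to 0.93 with Itgav and -0.79 to -0.72 with Ebi3. Ebi3 had r of -0.89 to -0.49 with Lrrc32, and Itgb8 had 0.26 to 0.90 with Itgav. All other pairs of the 6 changed sign between tables.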

How the data were processed

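The 6 genes and the gene lists were chosen with earlier results of these data known. Libraries were made, per the labels, by Triton X-100 lysis, reverse transcription, cDNA amplification and Nextera XT. The authors used STAR 1.1.0, TopHat 1.0.0, DESeq2 1.1.0, DESeq and Cufflinks with mm10 (GRCm38), per the submitters' processing notes, which name no roles. The authors deposited, per comparison, rlog values per library, which are on a log2 scale. Their DESeq2 table, per the file headers, gives the mean normalized count (the signal used for filtering), a log2 fold change, a Wald statistic, which is a score, and p-values with adjusted p. The authors' Cuffdiff table gives FPKM per group, a test score, a p-value and a q-value. Signs of the authors' fold changes were turned to 4-8 over 12-4.4m1 and islets over spleen. The minimum of 10 is also where the authors' table stops giving an adjusted p. The rlog shrinkage understates differences of low genes.

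Each table was fitted on its own with limma 3.58.1 (lmFit, eBayes with a mean-variance trend, R 4.3.3), 3 libraries against 3, after a check on simulated data. Rows of repeated symbols, 4 per table, were left out, and 0 columns were unused. A column of the islet TCR table whose number matches no title was used as islet 4-8. Spleen replicate 2 of each TCR lists the other TCR's tissue table in its description, and columns were taken by title. Named genes were the 6, up to 4 genes of each list past the threshold by smallest p, otherwise the 1 with the smallest p between TCRs, and the 3 most alike by correlation, some of which are not reported here. Other filters, variance models, scaling, left-out libraries, the replicate block, title style, an Xist term and the authors' tests were tried as alternatives. Positions are from GENCODE on GRCm38 and promoters from RefSeq.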

Additional observations from a re-analysis of the deposited data

How the results depend on the processing

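Over the 6 genes, 338 of 348 alternative values kept their direction, 12 lost a call, 6 gained one and 10 turned, all 10 in TCR differences of Tgfb1, Itgb8 or Itgav that had not passed. On leaving out 1 library, Itgav in islets ranged from -0.018 to 0.20 (turned without 4-8 replicate 2), Tgfb1 in islets from -0.18 to 0.15 (turned without the 4-8 library of unmatched number and, at 0.02, without 12-4.4m1 replicate 3) and Tgfb1 in spleen from -0.11 to 0.079 (turned without replicate 1 of 4-8 and, at 0.02, of 12-4.4m1). With R-titled libraries only, Itgav in islets turned to -0.16 and Itgb8 to -0.0069, under the replicate block Tgfb1 in islets to 0.22, and with Xist in the fit Tgfb1 in spleen to 0.0085 and Itgb8 to 0.093. With both spleen replicates 2 exchanged, Itgb1 turned to 0.11, Smad2 to 0.087 and Il12rb2 to -0.042; the cause of these turns was not tested.

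Between the TCRs in islets, 30 genes passed and 9 to 44 on leaving out 1 library (9 without 12-4.4m1 replicate 1, 11 without replicate 2), 15 at a minimum of 50, 52 with title style in the fit, 16 with R-titled libraries only (2 against 1) and 57 in the authors' Cuffdiff table. Of the 6 genes 1 passed, and 0 to 1 on leaving out 1 library, 0 at a minimum of 50, with the robust variance model or with R-titled libraries only, and 2 in the Cuffdiff table. Between the TCRs in spleen, 39 genes passed and 14 to 56 on leaving out 1 library (23 and 14 without 4-8 replicates 2 and 3, 16 without 12-4.4m1 replicate 2), 17 without the mean-variance trend, 11 with both replicates 2 left out, 0 with them exchanged (244 at an unadjusted p under 0.05), 19 with Xist in the fit, 21 in the authors' DESeq2 and 84 in their Cuffdiff table. Of the 6 genes 0 to 1 passed on leaving out 1 library. Between tissues, 717 genes passed with 4-8, 306 to 1211 on leaving out 1 library (1211 without islet replicate 2, and 306, 370 and 326 without spleen replicates 1, 2 and 3) and 1160 in the Cuffdiff table. With 12-4.4m1 575 passed, 288 to 610 on leaving out 1 library (288 and 313 without spleen replicates 1 and 2) and 938 in the Cuffdiff table. Of the 6 genes, 4 to 6 passed with 4-8 and 2 to 4 with 12-4.4m1 under all alternatives run, where the 4 come from R-titled libraries only (1 islet against 3 spleen libraries, the lone library assumed to vary like the others).

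Libraries of the same number did not deviate together (r of -0.12 to 0.13 over genes), so the numbers were not taken as pairs. With the replicate block, 53 genes passed in islets (replicates 1 and 2 only), 78 in spleen, 729 between tissues with 4-8 and 724 with 12-4.4m1, and Lrrc32 passed in spleen as the 1 of the 6 genes (limma adjusted p = 0.0310). In spleen Itgb1 (limma adjusted p = 0.000921) and Il12rb2 (limma adjusted p = 0.0436) passed too, and Itgb1 also with Xist in the fit (limma adjusted p = 0.0327). With 3 libraries a group and no counts per library, depth could not be weighed.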
